A study of Mus musculus with 2 samples.

Results

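Foxp3-positive regulatory T cells were examined in the lung of mice labelled GFI1 KO and GFI1 WT. The cells were chosen by their own transcripts. A member had at least 2 UMIs (unique molecular identifiers, each standing for 1 captured RNA molecule) summed over Cd3d, Cd3e and Cd3g and at least 1 Foxp3 UMI. It had 0 UMIs of Trdc, Cd8a and Cd8b1, which mark other T cells, and 0 UMIs of Ebf1, Csf1r, Mertk and Ptprb, which mark B cells, macrophages and endothelium. Of 29837 cells with at least 500 gene UMIs, at least 200 genes and at most 20% mitochondrial UMIs, 85 met the rule. The library labelled GFI1 KO held 28 of them and the library labelled GFI1 WT held 57.

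The data came from 2 single-cell libraries, 1 per genotype, made with 10x Genomics 3′ chemistry from live cells sorted out of enzymatically dissociated lungs of adult mice. By their labels 1 was GFI1 KO and the other GFI1 WT. The methods of the study describe a Gfi1 knockout line and keep all mice on the C57BL6/J background. No label gives a treatment, an age or a sex. The methods of the study put the mice at several weeks of age. The methods of the study state 2 samples per genotype, and 1 per genotype was analysed here. How many mice went into a library is not stated beyond labels that read mouse 1. With 1 library per genotype no test was possible, no p-value is given, and a difference between genotypes cannot be told apart from one between mice or libraries. The library labelled GFI1 KO held 10700 called cells with 116825535 gene UMIs, and that labelled GFI1 WT held 19515 cells with 162599284. Members had a median of 5466.5 gene UMIs (1446 to 15811) in the KO-labelled and 6340 (2722 to 45017) in the WT-labelled library. The libraries shared 74 cell barcodes, and 0 of them belonged to a member.

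Regulatory T cells are CD4+ T cells that restrain other immune cells, and the transcription factor Foxp3 defines the lineage. They carry high levels of the inhibitory receptor CTLA-4 and of CD25 (Il2ra), the high-affinity subunit of the IL-2 receptor, with which they take up IL-2. In barrier tissues such as the lung, effector members carry the IL-33 receptor ST2 (Il1rl1) and KLRG1 and make amphiregulin (Areg), a growth factor for epithelium. Resting members keep lymph node homing receptors such as Ccr7 and circulate through lymphoid organs. GFI1 is a zinc finger repressor of transcription that acts in lymphoid and myeloid development.

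Gfi1 itself was detected under the KO label. Its level was 10 UMIs in 8 of 28 cells, or 68.3 CPM, in the members of the library labelled GFI1 KO, and 0 UMIs in the 57 cells labelled GFI1 WT. CPM are UMIs summed over the cells of a class, per 1000000 UMIs without ribosomal, mitochondrial and Gm- genes. In Foxp3-negative Cd4 T cells, which met the same rule but with 0 Foxp3 UMIs and at least 1 Cd4 UMI (88 and 494 cells), Gfi1 stood at 34.8 CPM with the KO label and 8.87 CPM with the WT label. The sources used here do not say which bases the allele lacks, so a count of 3′ ends does not check the labels. In the lung of GFI1 KO mice the study reports a larger share of γδ T cells and a smaller share of CD4+ T cells. Here T cells with a Trdc UMI numbered 80 and 89 and Foxp3-negative Cd4 T cells 88 and 494, beside 732 and 2373 CD3-gated cells. Both shares run the way the labels say. The Gfi1 paralog Gfi1b had 0 UMIs in the members of both libraries.

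The identity of the cells held on transcripts and proteins that the rule had not used. The antibody tag for CD4 reached 30 counts on 28 of 28 members under the KO label and on 56 of 57 under the WT label, although a Cd4 UMI was found in 14 and 31 of them. The tag medians were 232 and 157 counts. Among B-gated cells (0 CD3 UMIs and at least 2 UMIs over Cd79a, Cd79b and Ms4a1, 913 and 3058 cells), which should lack CD4, 0.11% and 0.458% reached 30 counts. The CD8a tag reached 30 counts on 0 members of either library, but the rule had already set Cd8a and Cd8b1 transcripts to 0.

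**Figure D1:**
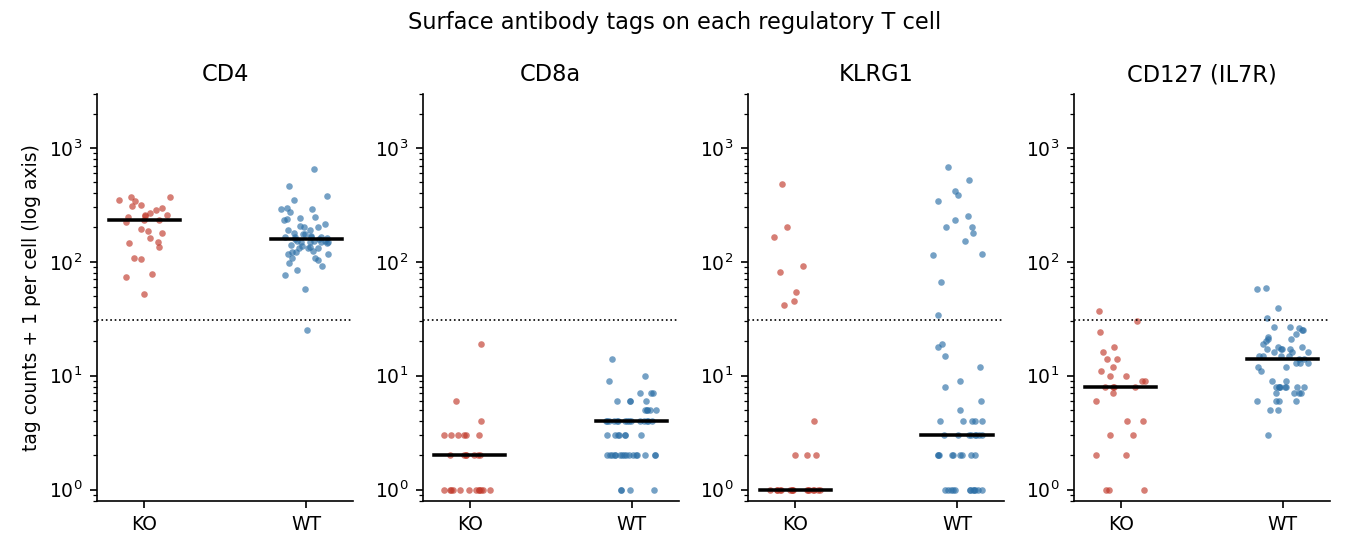
Counts of 4 surface antibody tags on each member (points, 28 cells labelled KO and 57 labelled WT; y axis, counts + 1 on a log scale; bar, median; dotted line, 30 counts). CD4 is high on nearly every member, CD8a is low, and KLRG1 separates a high group in both libraries.

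Foxp3 was chosen on and is given as a description only. It stood at 417 CPM (61 UMIs) in KO-labelled and 397 CPM (162 UMIs) in WT-labelled members. A Foxp3 UMI was found in 2 of 913 B-gated cells under the KO label and 2 of 3058 under the WT label, so little of it was found in cells that should lack it. Members with exactly 1 Foxp3 UMI numbered 12 and 16. Their Ctla4 level of 2382 and 1564 CPM lay below the 2971 and 1945 CPM of members with 2 or more. The other markers did not all go that way. Under the KO label Il2ra (394 against 303 CPM), Tnfrsf4 (984 against 670), Itgb8 (177 against 41.9) and Ikzf2 (5276 against 2835) were higher in cells with 1 Foxp3 UMI. Under the WT label Il2ra (272 against 730 CPM), Tnfrsf4 (408 against 429) and Itgb8 (9.71 against 98.2) were lower and Ikzf2 (3234 against 3144) was close. Just outside the rule, Foxp3-negative Cd4 T cells had 947 and 238 CPM of Ctla4 and 72.2 and 31.7 CPM of Il2ra.

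Among the other 4 markers, Ctla4 was the most abundant. It was found in 27 of 28 cells labelled KO and 53 of 57 labelled WT, at 2767 and 1849 CPM, a ratio of 1.5 (1.32 to 1.69). Intervals of ratios are exact conditional binomial 95% intervals and cover counting error only. UMIs of 1 cell are not independent, so a gene carried by few cells is less certain than its interval says. Il2ra stood at 335 CPM in KO-labelled and 615 CPM in WT-labelled members, a ratio of 0.545 (0.393 to 0.742), and 65 of the 251 UMIs labelled WT came from 1 cell. This ratio did not hold in every part of the members, as given below for cells with and without Il1rl1 or Klrg1. Tnfrsf4 (OX40), a costimulatory receptor of the TNF receptor family, reached 779 CPM against 424 CPM, with a ratio of 1.84 (1.44 to 2.34). Itgb8, the integrin subunit that with the αv chain releases active TGF-β, was low, with 13 UMIs in 7 cells and 31 UMIs in 14 cells. Ikzf2 (Helios), a factor of thymus-derived regulatory T cells that is in the same core list, was more abundant than any of these at 3682 and 3166 CPM and was found in 92.9% and 89.5% of members. The single-cell values of the libraries overlapped for each marker. A UMI marks the 3′ end of 1 molecule, so these levels do not scale with transcript length.

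**Figure D2:**
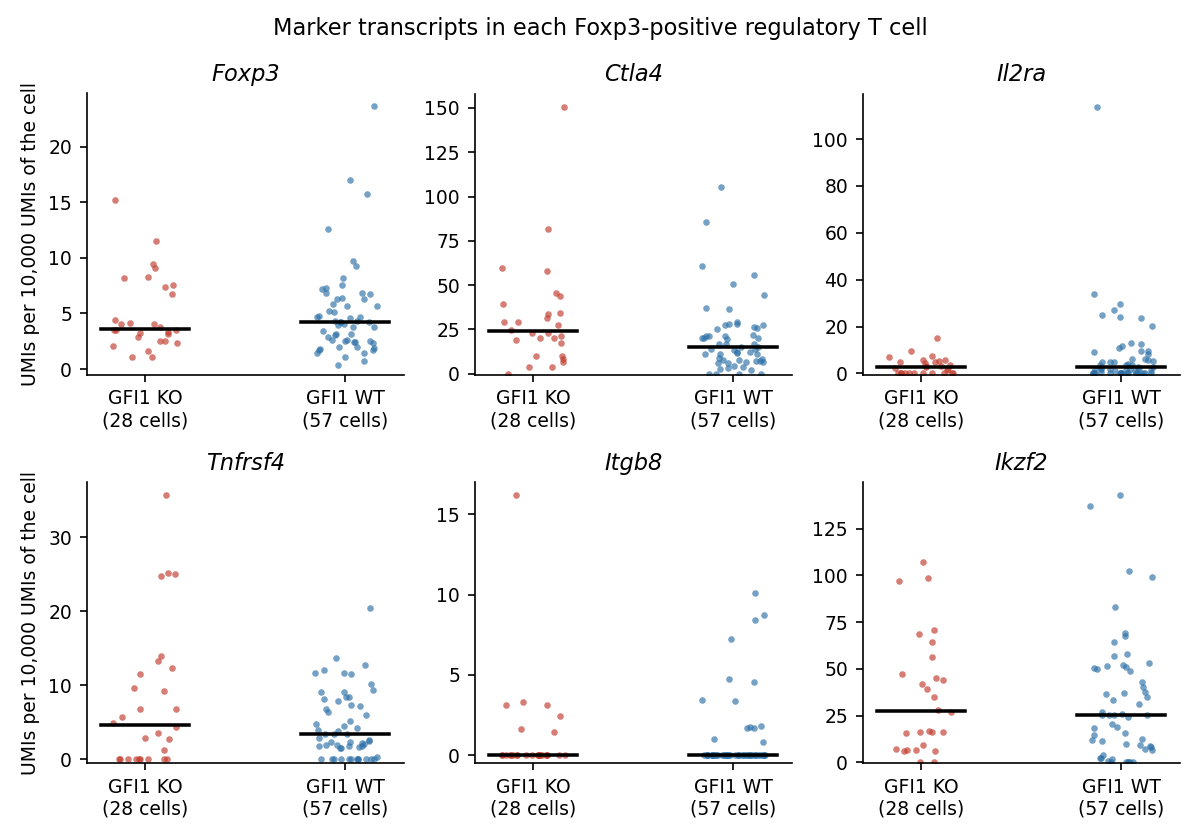
UMIs of 6 marker genes per 10000 UMIs in each member (points; bar, median; 28 cells labelled KO, 57 labelled WT). Ctla4 and Ikzf2 are found in most cells of both libraries, Itgb8 in few, and 1 WT cell stands far above the others for Il2ra.

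The members differed from Foxp3-negative Cd4 T cells of the same library in a set of genes shared by both libraries. Of 2319 genes with at least 50 UMIs over both classes in each library, 64 were at least 2-fold higher in members in both libraries (2.76% of those compared). Another 65 were at least 2-fold lower in both (2.8%), and 3 went in opposite directions. Genes of the rule and Cd4 were left out. Areg was 7.63-fold higher in the KO-labelled library (5.82 to 10.1) and 12.8-fold in the WT-labelled one (10.3 to 15.8). Ikzf2 was 5.10-fold and 12.1-fold higher, Il2ra 4.64-fold and 19.4-fold, and Ctla4 2.92-fold and 7.78-fold. The smaller ratios under the KO label went with higher levels in the comparison class. Foxp3-negative Cd4 T cells held 722 CPM of Ikzf2 with the KO label against 261 CPM with the WT label, with an Ikzf2 UMI in 40.9% (30.5 to 51.9, exact binomial) and 11.3% (8.68 to 14.5) of cells.

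Of 11 listed receptors of the TNF family, 6 could be compared and 4 were at least 2-fold higher in members in both libraries, beside 2.76% of all genes compared. Tnfrsf4 was 6.93-fold and 7.17-fold higher than in Foxp3-negative Cd4 T cells, Tnfrsf9 (4-1BB) 5.16-fold and 18.7-fold, and Tnfrsf18 (GITR) 3.80-fold and 3.13-fold. Itgav, which encodes the αv chain that pairs with Itgb8, was 5.49-fold and 7.40-fold higher. Lrrc32 (GARP), which holds latent TGF-β on the cell surface, had 18 UMIs in 10 cells labelled KO and 37 in 18 labelled WT, against 8.02 and 3.80 CPM in Foxp3-negative Cd4 T cells. Further genes with high ratios in both libraries were Sh3rf1, a scaffold of the JNK pathway (5.45-fold and 11-fold), Glrx, a glutaredoxin (5.69-fold and 5.99-fold), S100a10, a partner of annexin A2 (3.23-fold and 3.60-fold), and the phosphatase gene Phlpp1 (4.52-fold and 2.88-fold). Tent5a (4.88-fold and 4.30-fold) and the receptor phosphatase gene Ptprj (3.95-fold and 4.96-fold) followed. Frmd5, a gene of the FERM domain family, headed the ranking but rested on few cells. Its 57 UMIs under the KO label were in 4 cells and its 76 under the WT label in 9, against 0 and 5.07 CPM in the comparison class.

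Of 18 listed genes of resting and lymphoid T cells, 16 could be compared. In members 9 of them were at least 2-fold lower in both libraries, beside 2.8% of all genes compared. They were Bcl2, Dapl1, Lef1, Bach2, Foxp1, Tcf7, Igfbp4, Ccr7 and Satb1. The survival factor Bcl2 stood at 102 CPM in KO-labelled and 240 CPM in WT-labelled members, against 693 and 1184 CPM in Foxp3-negative Cd4 T cells. Tcf7 (TCF-1), a factor of naive and memory T cells, stood at 68.3 and 135 CPM against 433 and 528 CPM. S1pr1, the receptor for egress from lymphoid organs, was not past 2-fold in either library. The tag for CD127 (IL7R), which regulatory T cells carry at low levels, had a median of 7 counts on members labelled KO and 13 on members labelled WT, against 11 and 15 on Foxp3-negative Cd4 T cells. Il7r transcripts were 0.585 and 0.523 times the level of the comparison class. On B-gated cells the CD127 tag had medians of 3 and 6 counts, so its background also differed between the libraries. It reached 30 counts on 3.57% and 7.02% of members and on 12.5% and 8.50% of Foxp3-negative Cd4 T cells.

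**Figure D3:**
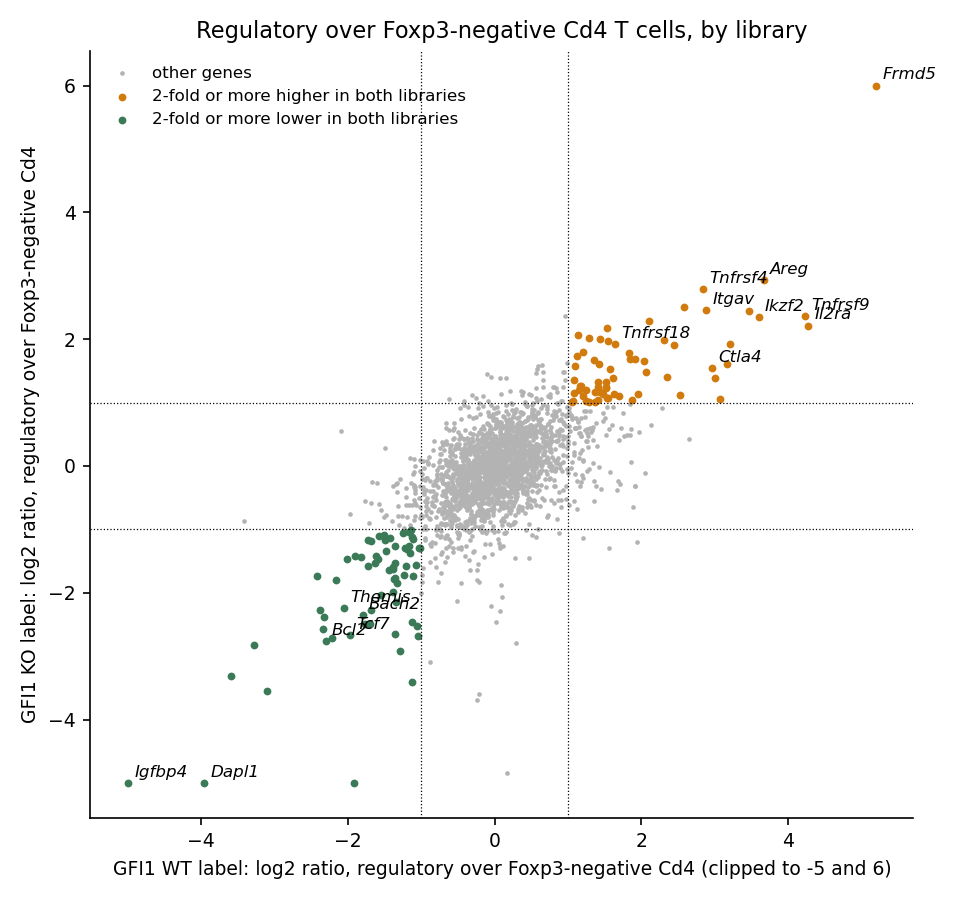
Log2 ratio of members over Foxp3-negative Cd4 T cells under the WT label (x axis) and the KO label (y axis) for 2319 genes (points; values beyond -5 or 6 are drawn there; dotted lines, 2-fold). The 64 genes at upper right include Areg, Ikzf2 and TNF receptor genes, and the 65 at lower left include Bcl2, Tcf7 and Bach2.

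Within the members, surface KLRG1 marked a group in both libraries. The tag reached 30 counts on 8 of 28 members with the KO label (28.6%, 13.2 to 48.7) and on 15 of 57 with the WT label (26.3%, 15.5 to 39.7). Among Foxp3-negative Cd4 T cells the shares were 1.14% and 1.21%. Tag and transcript went together, with a Klrg1 UMI in 6 of the 8 tagged cells and 0 of the other 20 labelled KO. Under the WT label they were 14 of 15 and 5 of 42. KLRG1-tagged members held more of the IL-33 receptor gene Il1rl1, at 718 CPM against 110 CPM in untagged KO-labelled members and 1050.5 CPM against 255 CPM in untagged WT-labelled members. Itgae (CD103), an integrin chain of tissue-resident T cells, was 5.06-fold higher in tagged KO-labelled members (1.98 to 13.9) and 2.08-fold in tagged WT-labelled members (1.23 to 3.45). The chemokine receptor genes Cxcr6 (5.30-fold and 5.41-fold) and Ccr2 (3.90-fold and 3.75-fold) and S100a4 (2.22-fold and 2.92-fold) went the same way. Itgae and Cxcr6 rested on few cells. A single tagged KO-labelled member held 8 of the 14 Itgae UMIs and 7 of the 11 Cxcr6 UMIs were in 1 cell in each library. Without the tagged cell with the most UMIs the ratios were 2.70 (0.772 to 8.87) and 1.65 (0.876 to 2.93) for Itgae and 2.40 (0.498 to 10.1) and 2.13 (0.479 to 7.63) for Cxcr6, so these intervals included 1. For Ccr2 and S100a4 they lay above 1 in both libraries.

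Other genes had ratios that differed between the libraries. Gata3, a factor of type 2 and tissue regulatory T cells, was 3.82-fold higher in tagged members labelled WT (2.80 to 5.19) and 0.803 times under the KO label (0.233 to 2.24). Il2ra was 6.92-fold (5.33 to 9.01) and 1.68-fold higher (0.884 to 3.10), and 4.30-fold (3.19 to 5.80) under the WT label without the tagged cell that held 65 of the 153 UMIs. Areg was 2.94-fold (2.30 to 3.74) and 1.14-fold higher (0.837 to 1.55), and Tnfrsf9 3.09-fold and 1.02-fold. Without the tagged cell with 16 of 28 UMIs, Tnfrsf9 under the KO label was 0.517 times (0.256 to 0.955). Rora was 3.16-fold and 1.36-fold higher. Under the WT label Tcf7 (0.082 times), Ccr7 (0.236 times) and S1pr1 (0.393 times) were lower in tagged members, while S1pr1 was 1.53-fold higher under the KO label (0.814 to 2.79). Klf2, a factor that keeps T cells quiescent and drives S1pr1, was 0.489 times under the WT label (0.337 to 0.691) and 1.76-fold higher under the KO label (1.25 to 2.47), where the interval included 1 without the tagged cell with the most UMIs (1.42, 0.949 to 2.08). Pparg, a nuclear receptor of adipose tissue regulatory T cells, had 44 UMIs under the WT label, of which 31 came from 1 cell, and 0 under the KO label. The difference between the libraries in these ratios was not tested.

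The same split by transcript, at least 1 UMI of Il1rl1 or Klrg1, took in 9 of 28 members with the KO label (32.1%, 15.9 to 52.4) and 31 of 57 with the WT label (54.4%, 40.7 to 67.6). The difference was -22.2 percentage points (-43.2 to 2.19). Among B-gated cells the shares were 0.438% and 1.11%. Thinning each cell to 1500 UMIs, which left out 1 shallower cell labelled KO, gave 18.5% (5 of 27) and 40.4% (23 of 57) in 1 draw. Over 20 draws the median shares were 22.2% (14.8 to 29.6) and 39.5% (28.1 to 43.9), and the difference ran from -29.0 to -3.90 points with a median of -16.4. Il1rl1 was found in 7 of 28 and 26 of 57 members and Klrg1 in 6 and 19, while the shares with the KLRG1 tag lay closer together.

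Areg was higher under the KO label in cells with 0 UMIs of both markers, but these cells differed between the libraries in other genes too. Their levels of the resting genes Ccr7 (ratio 0.208, 0.0808 to 0.448), Tcf7 (0.257, 0.0796 to 0.645), Bach2 (0.225, 0.134 to 0.356) and Satb1 (0.502, 0.392 to 0.636) were lower under the KO label, and the part of this in the Areg ratio was not tested. In cells without Il1rl1 or Klrg1 it was found in 11 of 19 members labelled KO (57.9%, 33.5 to 79.7) and 7 of 26 labelled WT (26.9%, 11.6 to 47.8). Its level there was 1416 CPM against 139 CPM, a ratio of 10.2 (6.70 to 15.9). The most in any 1 cell was 38 of 123 UMIs under the KO label. In cells with either marker the levels were 1547 and 1244 CPM, a ratio of 1.24 (0.969 to 1.58). Without the top cell of each library the Areg ratio was 1.53 (1.16 to 2.01) with either marker and 11.9 (7.10 to 21.0) without. Tnfrsf9 had a ratio of 4.84 (3.13 to 7.63) in cells without the markers and 0.845 (0.583 to 1.20) in cells with them. Leaving out the top cells gave 5.97 (3.63 to 10.1) and 0.574 (0.356 to 0.890). Il18r1, the ligand-binding chain of the IL-18 receptor, had ratios of 4.49 (3.16 to 6.45) and 1.27 (0.891 to 1.78). Gata3 went the other way, at 0.218 times (0.0977 to 0.425) in cells with the markers and 1.045 times (0.513 to 2.02) in the others. Median depth in cells without the markers was 5056 and 6241.5 UMIs. The size of the Areg ratio depended on the split, which uses Il1rl1, a gene whose detection itself differed between the libraries. Among members without the KLRG1 tag Areg reached 1416 CPM against 516 CPM, with a ratio of 2.74 (2.19 to 3.43), and among tagged members the ratio was 1.07 (0.771 to 1.47). For Tnfrsf9 the ratios were 2.09 (1.55 to 2.80) without the tag and 0.691 (0.433 to 1.07) with it, and for Il18r1 2.52 (1.95 to 3.24) and 1.43 (0.863 to 2.34). For Il2ra they were 0.969 (0.625 to 1.46) without the tag and 0.235 (0.136 to 0.384) with it. Without the top cell of each library the ratios of tagged members became 0.401 for Tnfrsf9 and 2.48 for Il18r1.

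Between the libraries, 2519 genes had at least 50 UMIs over all members. Under the KO label 39 of them were at least 2-fold higher (1.55%) and 156 at least 2-fold lower (6.19%), and the median ratio was 0.958. The 12 genes named at each end of the ranking were taken by the interval bound nearer to 1.

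Among the 12 highest genes under the KO label, Areg stood at 1469 CPM in 20 of 28 cells against 700 CPM in 27 of 57. Its ratio was 2.10 (1.75 to 2.51). Il18r1 reached 991 CPM against 446 CPM, with a ratio of 2.22 (1.77 to 2.78). Pglyrp1, which encodes a peptidoglycan recognition protein, reached 355 CPM against 113 CPM, with a ratio of 3.15 (2.08 to 4.80), and was found in 17 of 28 and 22 of 57 cells. The galectin-3 gene Lgals3 had a ratio of 2.79, Ly6a (Sca-1) 2.43, and Gpr183 (EBI2), a receptor for oxysterols, 2.51. Capg, an actin capping protein, was found in 24 of 28 and 45 of 57 cells and had a ratio of 2.25. Clcn3 (2.51), Cyb5a (2.23), Gmfg (2.03) and Emb (1.84) completed the 12 with Il17a. Without the cell with the most UMIs in each library, Gmfg had a ratio of 1.88 (1.44 to 2.44). Of the 39 genes, 1 had most of its UMIs under the KO label in a single cell. Some of these genes were also higher under the KO label in Foxp3-negative Cd4 T cells, where the ratio was 3.51 for Areg, 3.13 for Il18r1, 2.37 for Pglyrp1 and 5.82 for Capg. For Clcn3, Cyb5a and Gmfg it was 0.853, 1.12 and 1.19.

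**Figure D4:**
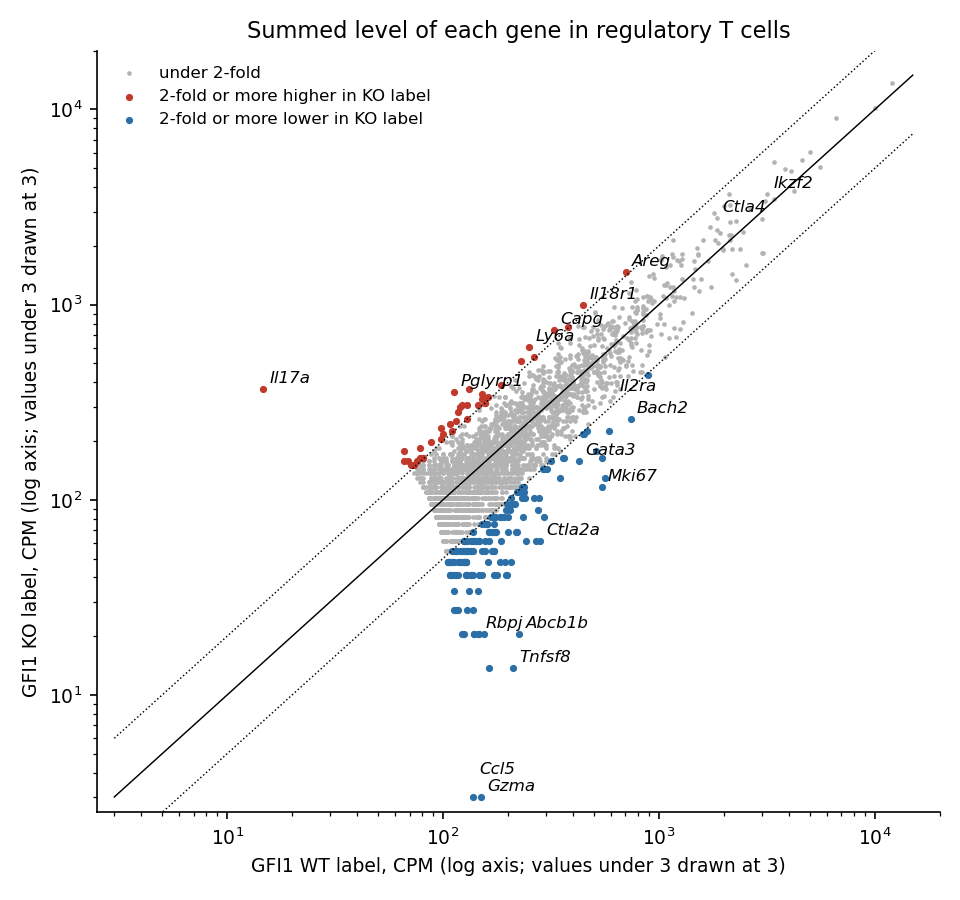
Summed level of 2519 genes in members labelled KO (y axis) against members labelled WT (x axis), in CPM on log axes (values under 3 drawn at 3; solid line, equal levels; dotted lines, 2-fold). Il17a lies far above the line, Gzma and Ccl5 had 0 UMIs under the KO label, and 156 genes lie below the lower dotted line against 39 above the upper one.

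Il17a, the cytokine gene of type 17 cells, had the highest ratio and rested on few cells. Under the KO label 5 members held 1, 4, 41, 1 and 7 UMIs, and under the WT label 3 members held 2, 3 and 1. The summed levels were 369 and 14.7 CPM, a ratio of 25.1 (10.8 to 71.4). Without the cell with the most UMIs in each library the ratio was 12.6 (3.47 to 69.0). The share of cells with a UMI was 17.9% (6.06 to 36.9) and 5.26% (1.10 to 14.6), and these intervals overlap. In B-gated cells Il17a was found in 1 of 913 and 0 of 3058 cells. Foxp3-negative Cd4 T cells held it in 10.2% and 0.81% of cells, at 209 and 5.91 CPM. The cell with 41 UMIs had 3 Foxp3 UMIs, 48 Ctla4 UMIs, 26 Areg UMIs, 3 Ccr6 UMIs and 233 CD4 tag counts, and 0 Ikzf2 UMIs.

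Most other genes of the IL-17 program had too few UMIs to compare. Of 18 listed, 14 were detected, 4 had 0 UMIs in both libraries, and 4 had 50 UMIs. Il17a and Batf, an AP-1 factor (2.07), were at least 2-fold higher, and none was 2-fold lower. Maf reached 533 CPM against 495 CPM, with a ratio of 1.08 (0.819 to 1.41), although Maf in Foxp3-negative Cd4 T cells stood at 647 and 151 CPM. Il1r1, the IL-1 receptor, had 15 UMIs in 4 cells under the KO label and 0 under the WT label, so that like Il17a it was found more under the KO label, in few cells. The summed level of the list had a ratio of 1.18 (1.04 to 1.33), which was 0.981 (0.853 to 1.12) without the top cell of each library.

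Of the 12 lowest genes under the KO label, Mki67, Nusap1, Tpx2 and Birc5 belong to dividing cells. Nusap1 had 2 UMIs under the KO label and 67 under the WT label, and Tpx2 had 3 and 59. Others came mostly from single cells. Gzma (granzyme A) had 0 UMIs under the KO label and 61 under the WT label, of which 57 were in 1 cell, the member that Scrublet called a doublet, and 4 UMIs in 3 cells remained without it. Ccl5, a chemokine gene of cytotoxic and memory cells, had 0 and 56 UMIs, with 29 in 1 of the 9 positive cells and 15 in the called doublet. Tnfsf8 (CD30 ligand) had 2 and 86 UMIs, with 50 in 1 cell. Dusp10, Rbpj and Ctla2a were spread over more cells. Dusp10, a phosphatase of stress kinases, stood at 130 CPM in 10 of 28 cells and 561 CPM in 40 of 57, a ratio of 0.231 (0.137 to 0.370). Rbpj, the DNA-binding factor of Notch signalling, had 3 UMIs in 2 cells and 60 UMIs in 23 cells. Ctla2a, a cysteine protease inhibitor, had a ratio of 0.218 (0.0974 to 0.429) and was found in 6 and 25 cells. The efflux pump gene Abcb1b had 3 UMIs and 92 UMIs, with 30 of the latter in 1 cell, and the histone gene H2ax had 3 and 63. In Foxp3-negative Cd4 T cells Dusp10 was also lower under the KO label, with a ratio of 0.404 (0.357 to 0.457). There the ratio was 0.0356 for Gzma, 0.0834 for Nusap1, 0.244 for Tpx2, 0.504 for Mki67 and 0.644 for Birc5. H2ax (0.817) and Abcb1b (0.991) were closer to 1, and Rbpj (1.18), Ccl5 (1.58), Ctla2a (1.94) and Tnfsf8 (2.08) were above it. A count of 0 in the members labelled KO allows a level of up to 20.5 CPM (3 UMIs).

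By function, most lists held members within 2-fold. The background for each count is 1.55% higher and 6.19% lower over all genes compared, so calls were more often lower than higher in general. A count of 1 lower gene among 10 to 14, or of 2 among 23, lies near that share. The regulatory T cell core list had 2 of 15 measured genes higher (Capg and Tigit, 2.38) and none lower, and a median log2 ratio of 0.48 against -0.06 over all genes compared. Its summed level had a ratio of 1.33 (1.25 to 1.40), and the same list had a ratio of 2.35 (2.22 to 2.48) in Foxp3-negative Cd4 T cells. The 6 TNF receptor genes had 0 past 2-fold and a median log2 ratio of 0.68. Tissue and effector genes had 2 of 23 higher (Areg and Batf) and 2 lower (Gata3, 0.367, and the hyaluronan receptor gene Cd44, 0.487). Without the cell with the most UMIs in each library, Batf (1.77) and Cd44 (0.501) were within 2-fold. Suppressive mediators had 2 of 11 higher (Areg and the inhibitory receptor Tigit) and 2 lower (Fgl2, a secreted suppressor, 0.167, and Gzma, which falls under 50 UMIs without the called doublet). Il10 was sparse, at 3 UMIs in 2 cells and 9 UMIs in 4 cells.

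Of 14 resting and lymphoid genes compared, 4 were lower under the KO label, beside 6.19% over all genes, and 0 were higher, beside 1.55%. Their median log2 ratio was -0.80 against -0.06 over all genes. The 4 were Bcl2 (0.427), Bach2 (0.351), a repressor that keeps T cells quiescent, Ccr7 (0.254) and Rasgrp2 (0.340). Bach2 was found in 13 of 28 and 35 of 57 cells. Their summed level had a ratio of 0.702 (0.649 to 0.760) in members, 0.647 in Foxp3-negative Cd4 T cells and 0.451 in T cells with a Trdc UMI. Homing receptors and integrins had 1 of 16 higher (Gpr183) and 2 lower (Ccr7 and the α4 integrin gene Itga4, 0.452). Cytokine receptors had 1 of 14 higher (Il18r1) and 1 lower (Tgfbr2, the TGF-β receptor, 0.441). Type 1 genes had 1 of 5 higher (Il18r1) and 1 lower (Ccl5), and type 2 genes 1 of 4 lower (Gata3). T cell receptor signal genes had 1 of 10 lower (Nr4a3, 0.373). GFI1 and its partners (3 measured), Ikaros and Id factors (5), immediate-early and dissociation genes (10) and class I MHC and T cell identity genes (14) had none past 2-fold.

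Interferon-stimulated genes had a higher summed level under the KO label in members. Of 14 listed, 5 reached 50 UMIs, and their 5 ratios were above 1, as were those of 1128 of the 2519 genes compared (44.8%). Bst2 (tetherin), which holds budding virus at the cell surface, had a ratio of 2.69 (1.51 to 4.78) and was found in 11 of 28 and 17 of 57 cells. Ly6a had a ratio of 2.43 (1.81 to 3.27), and none of the 5 was 2-fold lower. Among genes with fewer UMIs, Isg15, a ubiquitin-like modifier, had 16 UMIs in 9 cells against 20 in 13 cells, Zbp1, a nucleic acid sensor, 19 in 11 cells against 18 in 12, Irf7 10 in 6 cells against 6 in 5, and Ifit1 9 in 4 cells against 2 in 2. Gbp2, a guanylate-binding protein, went the other way with 4 UMIs in 4 cells against 19 in 14, a ratio of 0.587 (0.145 to 1.77). It was the 1 gene of the 14 with a ratio under 1, and 9 of the 14 had fewer than 50 UMIs. The list summed to 6422 CPM with the KO label and 4011 CPM with the WT label, a ratio of 1.60 (1.48 to 1.74). Ifi27l2a was its most abundant gene in both libraries. Per cell the median was 60.3 UMIs per 10000 under the KO label and 31.4 under the WT label, and the cells of the libraries overlapped. The same list had ratios of 1.08 (1.01 to 1.16) in Foxp3-negative Cd4 T cells, 1.23 (1.18 to 1.28) in Foxp3-negative Cd8 T cells, 1.05 (0.944 to 1.16) in T cells with a Trdc UMI and 1.11 (1.08 to 1.13) in B-gated cells. The difference between these classes was not tested.

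The promoters of 3 of these genes are shown because they hold the letters of the interferon-stimulated response element (ISRE), the site through which interferon signals reach these genes. Of the 3, only Bst2 had the 50 UMIs needed for a comparison, and without the top cell of each library the intervals of Isg15 (0.840 to 4.59) and Ifit1 (0.697 to 456) included 1. The letters searched were GAAA, then any 2 bases, then GAAA, on both strands, in the 250 bases before the RefSeq start (GRCm38.p6). Capitals mark matches, which overlap in Isg15 and Bst2. Windows follow the direction of the gene. Isg15 lies on chr4:156200819-156201068 (minus strand), Ifit1 on chr19:34640639-34640888 (plus strand) and Bst2 on chr8:71537473-71537722 (minus strand).
Isg15: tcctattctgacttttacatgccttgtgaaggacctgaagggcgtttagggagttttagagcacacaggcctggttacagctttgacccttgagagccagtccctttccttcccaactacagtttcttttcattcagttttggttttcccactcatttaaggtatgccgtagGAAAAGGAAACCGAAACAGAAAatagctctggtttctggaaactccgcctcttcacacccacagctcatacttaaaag
Ifit1: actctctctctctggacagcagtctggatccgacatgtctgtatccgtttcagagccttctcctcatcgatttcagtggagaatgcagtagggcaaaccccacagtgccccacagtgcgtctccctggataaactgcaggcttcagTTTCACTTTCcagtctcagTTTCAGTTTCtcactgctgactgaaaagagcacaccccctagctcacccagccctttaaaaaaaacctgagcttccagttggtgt
Bst2: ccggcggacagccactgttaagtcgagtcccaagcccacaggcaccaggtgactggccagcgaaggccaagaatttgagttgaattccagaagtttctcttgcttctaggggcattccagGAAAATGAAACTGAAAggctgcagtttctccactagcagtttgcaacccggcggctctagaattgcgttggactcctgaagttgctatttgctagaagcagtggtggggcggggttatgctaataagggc

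Of the 14 genes, 8 had a window in the table and 6 of these held the letters (Bst2, Gbp2, Ifit1, Ifit3, Isg15 and Rsad2). Over all 32851 windows the share was 2.98%. The same windows were searched for AATCAC, the core that GFI1 binds, on both strands. It was found in 2 of 36 genes higher under the KO label (5.56%), 17 of 132 lower (12.9%) and 177 of 2024 genes compared (8.75%), in 9.14% of all windows, and in 0 of the 8 interferon-stimulated genes. Il17a was 1 of the 2, with the letters between 242 and 237 bases before its start, on chr1:20730655-20730904 (plus strand).
Il17a: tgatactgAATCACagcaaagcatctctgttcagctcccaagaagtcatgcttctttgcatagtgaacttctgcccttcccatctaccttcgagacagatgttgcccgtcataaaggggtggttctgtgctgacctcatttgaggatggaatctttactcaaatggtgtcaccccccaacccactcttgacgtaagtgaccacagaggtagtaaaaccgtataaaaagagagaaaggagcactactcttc

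A match is a run of letters and was not tested as a bound site.

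**Figure D5:**
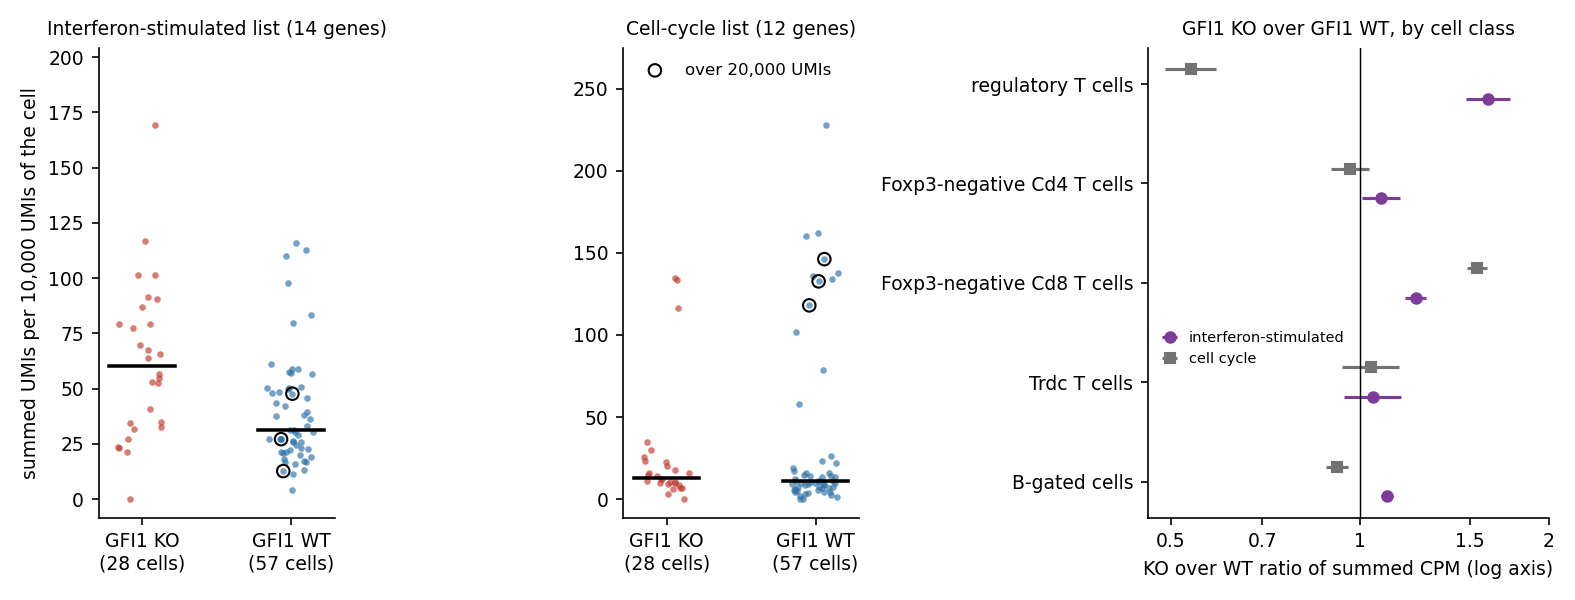
Summed UMIs of the interferon-stimulated and cell-cycle lists per 10000 UMIs in each member (left and middle; bar, median; circles, WT cells over 20000 UMIs), and the KO over WT ratio of each list by cell class (right, log axis; bars, 95% counting intervals). Interferon-stimulated genes are 1.60-fold higher in members labelled KO and closer to 1 in the other classes, and 3 cells labelled KO and 12 labelled WT form a separate group in the cell-cycle list.

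Cell-cycle genes were lower under the KO label in summed level. Of 12 listed, 10 were measured, 4 were at least 2-fold lower (Mki67, 0.214, Top2a, 0.302, Birc5, 0.228, and Cks1b, 0.260) and none was higher. Without the cell with the most UMIs in each library, Top2a was 0.112 (0.0445 to 0.237) and Cks1b 0.130 (0.0261 to 0.399). The list summed to 3635 and 6749 CPM, a ratio of 0.539 (0.490 to 0.591). Single cells held 165 of the 532 list UMIs under the KO label and 507 of the 2756 under the WT label, and without these 2 cells the ratio was 0.455 (0.406 to 0.508). Mki67 was found in 8 of 28 (28.6%) and 16 of 57 (28.1%) members, and the median cell held 13.2 and 10.9 list UMIs per 10000. No member lay between 34.9 and 58.0 UMIs per 10000, and those above 50 numbered 3 of 28 (10.7%, 2.27 to 28.2) and 12 of 57 (21.1%, 11.4 to 33.9). Under the WT label 3 cells over 20000 gene UMIs held 23.1% of all member UMIs and 44.9% of cell-cycle UMIs, including 124 of the 222 Mki67 UMIs. No member labelled KO was that large. Without these 3 cells the ratio of the list was 0.755 (0.683 to 0.834), and of 2066 genes then compared 36 were higher and 118 lower, of which 24 and 81 were the same genes as over all members. In Foxp3-negative Cd4 T cells the list had a ratio of 0.966 (0.9 to 1.04).

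Markers of other cell types were found in the members at differing levels. B cell markers (7 genes) summed to 799 CPM in KO-labelled and 455 CPM in WT-labelled members, a ratio of 1.75 (1.38 to 2.22). In Foxp3-negative Cd4 T cells they summed to 136 and 284 CPM, a ratio of 0.481 (0.354 to 0.640). Ighm, the heavy chain of IgM, led them in members with 635 and 389 CPM, found in 20 of 28 and 31 of 57 cells. Neutrophil and monocyte markers (14) summed to 253 and 230 CPM, a ratio of 1.10, but 1 WT-labelled cell held 39 of the 94 UMIs. Without the top cell of each library they summed to 237 and 138 CPM, a ratio of 1.72 (1.08 to 2.69). Alveolar macrophage markers (8) summed to 335 and 267 CPM, led by Ctsd and Fabp5. Endothelial markers (6) summed to 403 and 583 CPM, led by Pecam1. Epithelial markers (7) summed to 88.8 and 184 CPM, a ratio of 0.484 that was 0.298 (0.124 to 0.620) without the top cells. Scgb1a1, a secreted product of club cells, led them with 8 UMIs in 4 cells and 64 UMIs in 34 cells, and stood at 42.8 and 176 CPM in Foxp3-negative Cd4 T cells. Markers of NK cells (7) summed to 27.3 and 252 CPM, the latter led by Gzma. Without the 1 WT-labelled member that Scrublet called a doublet, the NK list had a ratio of 1.09 in place of 0.108. CD8 T cell markers (7) summed to 137 and 353 CPM, led by Nkg7. Markers of γδ T cells (9 of 14 listed were in the files) summed to 6.83 and 17.1 CPM. The rule itself set Cd8a and Cd8b1 in the first of these lists and Trdc in the second to 0. Fibroblast markers (6) summed to 0 and 4.90 CPM and red cell markers (5) to 6.83 and 4.90 CPM. Markers of innate lymphoid type 2 cells (8) summed to 1688 and 958 CPM in members and to 385 and 205 CPM in Foxp3-negative Cd4 T cells, led in members by Areg. The part of free RNA or mixed droplets in the differences between libraries was not tested.

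The share of regulatory T cells depended on the denominator. Of cells passing the CD3 gate, members were 3.83% with the KO label (28 of 732, 2.56 to 5.48) and 2.40% with the WT label (57 of 2373, 1.82 to 3.10), a difference of 1.42 percentage points (-0.0253 to 3.18). Of all cells passing filters they were 0.267% and 0.295%. Of members and Foxp3-negative Cd4 T cells together they were 24.1% (28 of 116) and 10.3% (57 of 551), a difference of 13.8 points (5.81 to 22.9). The Foxp3-negative Cd4 T cells themselves were 12% and 20.8% of CD3-gated cells. With the denominator set by antibody tags, CD4 at 30 counts or more and CD8a below, members were 14.4% (28 of 195) and 5.88% (56 of 952). A share of cells cannot tell more regulatory T cells from fewer other Cd4 T cells. The detection of Foxp3 rests on 1 UMI, and the exclusion genes removed 4 of 32 candidate cells under the KO label and 37 of 94 under the WT label. After thinning to 1500 UMIs, over 20 draws, the median difference was 0.453 points of CD3-gated cells (-0.624 to 1.48) and 10.7 points of Cd4-type cells (-4.28 to 22.8).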

How the data were processed

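The 2 libraries of lung cells were analysed, 1 per genotype, from the raw UMI counts per gene and antibody tag that the authors deposited for each called cell. The submitters' processing notes name Cell Ranger 9.0.1 and the builds GRCm39 and mm39, and no doublet or free RNA removal is stated in the sources used here. The study's methods describe library-size normalization, log transformation and scaling for its own analysis, which are not in the deposited counts. The 33696 genes and 18 tags were separated first, and 9543 ribosomal, mitochondrial and Gm- genes were left out of totals and levels (20.8% and 19.9% of member UMIs). Counts were summed per library and class with Python 3.11.15, numpy 2.4.6, scipy 1.17.1 and pandas 2.3.3. Shares have exact Clopper-Pearson 95% intervals and their differences square-and-add intervals, and intervals cover counting error only. A gene was compared at 50 or more UMIs and called at 2-fold. Cells are not replicates, so no test was run. The ratio and its interval were run on simulated sums, drawn independently for each gene and without cells. Such sums cannot check the interval where many UMIs of a gene lie in 1 cell. Doublets were kept. Scrublet (scanpy 1.11.5) called 346 cells labelled KO and 1126 labelled WT, and their removal was an alternative. The 30 counts that make a cell positive for a tag were taken from an earlier analysis of these data. The members, gene lists, tests and promoters were chosen with earlier results of these data known. Named genes were the markers, list members, 12 genes at each end of the ranking by KO over WT ratio (by the interval bound nearer to 1), and the 15 highest against Foxp3-negative Cd4 T cells. Promoter windows came from a RefSeq table of build GRCm38.p6, matched by symbol. Some listed genes and tags are not reported here.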

Additional observations from a re-analysis of the deposited data

Results flagged for a closer look

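The KO over WT ratio went in opposite directions in 4 genes. These genes were at least 2-fold lower under the KO label in regulatory T cells and at least 2-fold higher in Foxp3-negative Cd4 T cells, with counting intervals on opposite sides of 1. They were 4 of 2509 genes compared in both classes, the opposite pattern did not occur, and the difference between the classes was not tested. Tnfsf8, the CD30 ligand, had a ratio of 0.0649 in regulatory T cells and 2.08 in Foxp3-negative Cd4 T cells, and 50 of its 86 UMIs labelled WT were in 1 cell. For 1500009L16Rik the ratios were 0.323 and 4.22, with 40 of 69 UMIs in 1 cell. Adam19, a membrane metalloprotease gene, had ratios of 0.387 (0.178 to 0.754) and 2.24 (1.52 to 3.24), and was found in 8 of 28 and 21 of 57 regulatory T cells. Rap1gap2, a GTPase-activating protein for Rap1, had ratios of 0.429 (0.176 to 0.910) and 2.05 (1.40 to 2.93), in 7 and 16 cells.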

How the results depend on the processing

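No paired analysis was possible because each genotype had 1 library and no result came from a test. The direction of both shares held under every gate tried, from 0.458 to 1.46 percentage points of CD3-gated cells and from 7.72 to 13.96 points of Cd4-type cells, and none moved outside its counting interval. The seeded thinning draw, at 1.48 and 22.8 points, was the highest of the 20 differences, and the lowest draws were below 0. The 39 higher and 156 lower genes became 77 and 357 when Ebf1, Csf1r, Mertk and Ptprb were not used, of which 25 and 112 were the same genes. A minimum of 30 UMIs gave 106 and 309, and a minimum of 100 UMIs gave 15 and 35, by its construction. With every cell weighted equally 64 genes were higher and 181 lower, sharing 27 and 108. Requiring 2 Foxp3 UMIs gave 37 and 131, sharing 19 and 66, so which genes pass depends on the cells taken. The 64 genes higher than in Foxp3-negative Cd4 T cells became 34 at 100 UMIs. Of 40 named genes past 2-fold, between 29 and 40 stayed past it under the 10 alternatives, fewest in effector-marker cells alone. Ctsd reversed to 0.947 without the 4 exclusion genes and Gata3 to 1.045 in cells without Il1rl1 or Klrg1. In members without the KLRG1 tag Gata3 did not reverse (0.587). The NK cell list reversed to 9.25 in cells without Il1rl1 or Klrg1, where it had few UMIs, and to 1.09 without Scrublet doublets. Scaling to the median ratio gave 53 and 132 genes. The cause of these changes was not tested. The limit of 20000 UMIs, the 20 draws, the CD4 tag denominator, the minimum of 5 cells, the removal of top cells and the ratios by KLRG1 tag were chosen after seeing the data. A count of 0 in the members labelled KO allows up to 20.5 CPM.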

Other observations

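The member with the most Il17a UMIs (41) also carried 2201 counts of the PE_Streptavidin2 tag, against a median of 27.5 over members labelled KO and 38 over members labelled WT. What this tag was bound to is not given in the sources used here. It reached 30 counts on 13 of 28 and 38 of 57 members, and on 14.7% and 45.1% of B-gated cells.

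Outside the members, the summed level of the tissue and effector list had a KO over WT ratio of 2.59 (2.49 to 2.68) in Foxp3-negative Cd4 T cells, 2.12 (2.06 to 2.18) in Foxp3-negative Cd8 T cells and 4.04 (3.87 to 4.22) in T cells with a Trdc UMI, against 1.23 (1.17 to 1.28) in regulatory T cells. In regulatory T cells it was 2.09 (1.95 to 2.24) among cells without Il1rl1 or Klrg1 and 0.925 (0.867 to 0.986) among cells with either.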
